A study of Mus musculus with 6 samples.

Results

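The genes described here encode the subunits and the dedicated assembly factors of mitochondrial complex I, the NADH:ubiquinone oxidoreductase. They were found by symbol: Ndufa, Ndufb, Ndufc, Ndufs or Ndufv followed by a number, and Ndufaf followed by a number. A RefSeq gene table held 52 such mouse symbols, and 45 of these genes had a probe on the array that matched by RefSeq accession, with 53 probes in all among 55681 non-control probes. The 7 others, not analysed here, were Ndufb1, Ndufb4b, Ndufb4c, Ndufa11b, Ndufa12-ps, Ndufs5-ps and Ndufs6b. All 45 genes passed the filter on dim probes and were well above background on all 6 arrays, so each gives 1 of the 22278 features tested. They comprised 35 subunits, 8 assembly factors, and the pair Ndufa4 and Ndufa4l2, which carry a complex I name by history. Because Ndufa4 is now assigned to complex IV, that pair was counted apart from the 35 subunits.

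RNA was measured on 1-colour Agilent arrays in heart ventricle of C57bl/6j mice, all male and 11 to 12 weeks old. The 3 Tead1 icKO mice were Tead1F/F with the Myh6-CreER transgene and had received tamoxifen. The 3 control mice were Tead1 flox and had also received tamoxifen, with no Cre named in their labels, so loss of Tead1 and presence of the Cre cannot be told apart. Tead1 is a DNA-binding partner of the Hippo pathway coactivators Yap and Taz, and the Myh6 promoter confines the Cre to cardiomyocytes, while the tissue also holds fibroblasts, endothelial cells and macrophages, in which this promoter is not active.

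Complex I is the entry point for electrons from NADH into the respiratory chain and pumps protons across the inner mitochondrial membrane. Its matrix arm holds the flavin and the iron-sulphur clusters that carry electrons to ubiquinone, and its membrane arm holds the proton channels, whose core is encoded by mitochondrial DNA and was not analysed here. Accessory subunits surround this core and stabilise it. Assembly factors help to build the intermediates and are absent from the finished enzyme. Heart muscle is rich in mitochondria and makes most of its ATP by oxidative phosphorylation.

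Levels below are log2 signals relative to each array's 75th percentile, and differences are log2, Tead1 icKO minus control, with the standard error (SE) of the limma fit. Every adjusted p is from limma, adjusted by Benjamini-Hochberg over the 22278 features, and "fell" means an adjusted p below 0.05. Levels of different genes come from different probes and cannot be set against each other. Tead1 itself had levels of 3.66, 3.44 and 3.46 in icKO hearts, against 4.01, 3.79 and 3.96 in controls. It fell by 0.40 ± 0.11 (SE, limma adjusted p = 0.03), with no overlap of the groups, and where its probe lies relative to the deleted part is unknown here. The icKO signal was 75.9% of control. This call was not stable: it was lost when arrays were scaled by the median (-0.24, limma adjusted p = 0.186), with the slide row as a block (0.0631), with no filter on dim probes (0.122) and without control array 1 or 3 or icKO array 2 or 3 (0.0838 to 0.0888). On the spike-in scale the difference was 0.044 (limma adjusted p = 0.837).

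All 35 complex I subunits and all 8 assembly factors fell in Tead1 icKO ventricles. The median subunit stood at 51.7% of its control signal and the median assembly factor at 56.1%. Ndufs4, a matrix-arm subunit, fell to 39.3% of control and the assembly factor Ndufaf6 to 35.1%. Ndufa4 also fell, and its paralogue Ndufa4l2 was the 1 member of 45 that did not pass the test. Of all 22278 features, 44.8% passed the test in either direction, 28.7% of all features lower in icKO and 16% higher. For 44 of the 45 members all 3 icKO arrays lay below all 3 controls, a pattern that 37.7% of all features showed, and no member had the opposite pattern, which 21.6% of all features showed. The median difference was -0.95 over the subunits and -0.83 over the assembly factors, against -0.14 over all features, whose quartiles were -0.51 and 0.25. In bulk tissue, fewer cells of a type and less RNA per cell cannot be told apart.

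**Figure D1:**
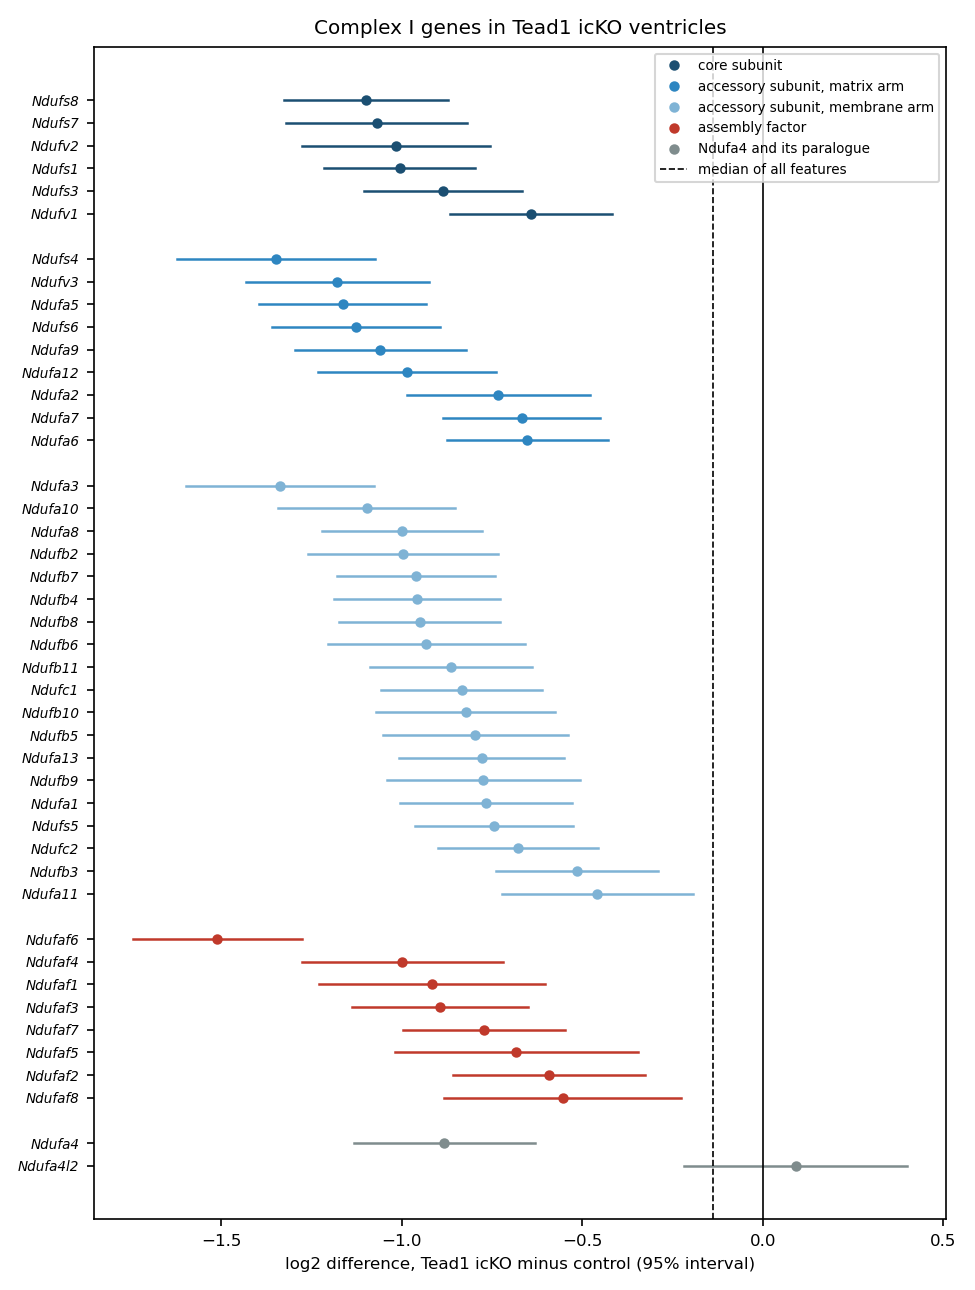
Log2 difference between Tead1 icKO and control ventricles (horizontal axis) for 44 of the 45 complex I genes (rows, grouped by role), with the 95% interval of the limma fit (n = 3 arrays per group). Every interval except that of Ndufa4l2 lies below 0, and the dashed line marks the median of all features at -0.14.

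The 7 nuclear-encoded core subunits all belong to the matrix arm, and their differences ran from -1.1 to -0.64. Ndufv1 binds NADH and the flavin at the tip of the arm, where electrons enter. Its levels were 8.22, 8.16 and 8.29 in icKO hearts, against 8.83, 8.95 and 8.82 in controls. The groups did not overlap, and the difference of -0.64 ± 0.09 (SE, limma adjusted p = 0.00287) was the smallest among the core subunits. Ndufv2, an iron-sulphur partner of Ndufv1, had levels of 6.78, 6.68 and 6.93 in icKO hearts, against 7.92, 7.74 and 7.79 in controls. Ndufs1, which carries iron-sulphur clusters of the same module, had 6.95, 6.84 and 6.94 in icKO hearts, against 7.92, 7.93 and 7.89 in controls. Both groups of arrays were tightly clustered for Ndufs1, and the differences were -1.02 ± 0.11 for Ndufv2 and -1.01 ± 0.09 for Ndufs1 (SE, limma adjusted p = 0.00103 and 0.00054).

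The other core subunits build the part of the matrix arm that hands electrons to ubiquinone. Ndufs8 carries iron-sulphur clusters on that path, and its levels were 4.78, 4.77 and 4.92 in icKO hearts, against 5.93, 5.98 and 5.87 in controls. Ndufs7, which holds the last cluster of the chain beside the ubiquinone pocket, had 7.98, 7.86 and 8.01 in icKO hearts, against 9.13, 8.90 and 9.03 in controls. The differences of this pair lay close together, at -1.1 ± 0.09 for Ndufs8 and -1.07 ± 0.10 for Ndufs7 (SE, limma adjusted p = 0.000522 and 0.000779), with no overlap of the groups in either. Ndufs3, which enters early in the assembly of the matrix arm, had levels of 7.44, 7.32 and 7.43 in icKO hearts, against 8.32, 8.22 and 8.30 in controls. It fell by 0.89 ± 0.09 (SE, limma adjusted p = 0.000911), again with no overlap. The 95% interval of Ndufv1 ran from -0.868 to -0.42 and that of Ndufs8 from -1.33 to -0.874, so the intervals at these ends of the range did not meet. On the spike-in scale they ran from -0.61 to 0.21 and from -1.05 to -0.26, and met. Both genes were picked by their differences and were not tested against each other.

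**Figure D2:**
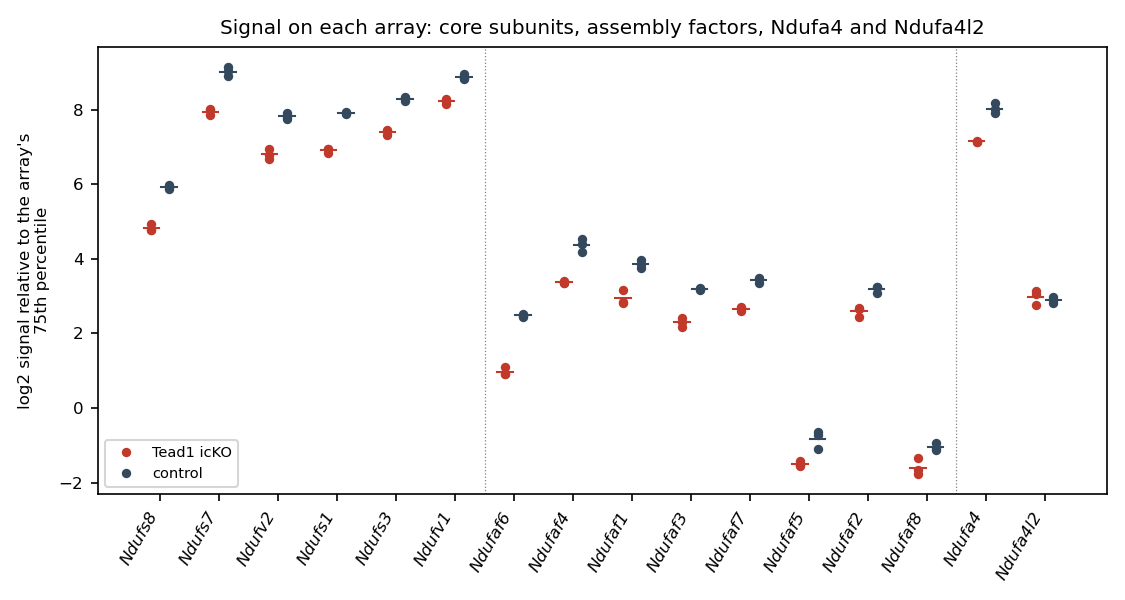
Log2 signal relative to each array's 75th percentile (vertical axis) on each of 3 Tead1 icKO and 3 control arrays for 6 of the 7 core subunits, the assembly factors, Ndufa4 and Ndufa4l2, ordered by difference within each block. Points are arrays and short lines are group means. All genes except Ndufa4l2 have every icKO array below every control.

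Among the 9 accessory subunits of the matrix arm the median difference was -1.06, or 48.0% of control, and differences lay between -1.35 and -0.65. Ndufs4, a late-added subunit whose loss in mice causes a Leigh-like brain disease, had levels of 5.43, 5.57 and 5.75 in icKO hearts, against 7.01, 6.88 and 6.91 in controls. It fell by 1.35 ± 0.11 (SE, limma adjusted p = 0.000508), with icKO arrays more spread than controls (SD 0.16 and 0.066) but far from overlapping. Ndufv3, a small subunit at the NADH-oxidising end, had 7.999, 8.14 and 8.25 in icKO hearts, against 9.39, 9.25 and 9.30 in controls. It fell by 1.18 ± 0.11 (SE, limma adjusted p = 0.000586). Ndufa5 and Ndufs6, also matrix-arm subunits, differed by -1.16 and -1.13. Ndufa9, which lies near the ubiquinone site, differed by -1.06 and Ndufa12, the finished enzyme's counterpart of the assembly factor Ndufaf2, by -0.99. The smallest differences were those of Ndufa2 (-0.73), Ndufa7 (-0.67) and Ndufa6 (-0.65). Ndufa6, an LYR-motif protein that binds the mitochondrial acyl carrier protein Ndufab1, had levels of 6.57, 6.52 and 6.65 in icKO hearts, against 7.31, 7.20 and 7.18 in controls. It fell by 0.65 ± 0.09 (SE, limma adjusted p = 0.00271), and its 95% interval of -0.88 to -0.43 did not meet that of Ndufs4, -1.62 to -1.07. On the spike-in scale the 2 intervals ran from -0.57 to 0.15 and from -1.27 to -0.54, and met. Ndufa6 and Ndufs4 were picked as the ends of the range and were not tested against each other.

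The 19 accessory subunits of the membrane arm had a median difference of -0.83, or 56.1% of control, and spanned a wider range of -1.34 to -0.46. Ndufa3, a small membrane-spanning subunit, had levels of 7.99, 8.03 and 7.80 in icKO hearts, against 9.38, 9.21 and 9.24 in controls. It fell by 1.34 ± 0.11 (SE, limma adjusted p = 0.000444), followed in its arm by Ndufa10 at -1.098. Ndufb3 had 6.92, 6.84 and 6.96 in icKO hearts, against 7.49, 7.33 and 7.44 in controls. Its icKO signal was 70.0% of control (limma adjusted p = 0.00632). Ndufa11, a membrane subunit that touches complex III in respiratory supercomplexes, had 6.03, 5.90 and 6.18 in icKO hearts, against 6.58, 6.45 and 6.45 in controls. This was the smallest change of the 35 subunits, -0.46 ± 0.11 (SE, limma adjusted p = 0.0166, 95% interval -0.72 to -0.19), and the call was lost without control array 1 (limma adjusted p = 0.0511). The remaining 16 lay between -1.098 and -0.68, with limma adjusted p between 0.000643 and 0.00276 and no overlap of the groups in any of them. Ndufb4, Ndufa11, Ndufa12, Ndufs5 and Ndufs6 have namesake copies among the genes without a probe, and cross-hybridisation with these was not tested.

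Ndufaf1 works with Ecsit and Acad9 on the early membrane arm. Its levels were 2.83, 2.82 and 3.17 in icKO hearts, against 3.96, 3.75 and 3.87 in controls. The third icKO array was the highest of its group yet below every control, and the difference was -0.92 ± 0.13 (SE, limma adjusted p = 0.00264). Ndufaf3 and Ndufaf4 bind each other and help to build the ubiquinone-binding module. Ndufaf3 had levels of 2.17, 2.31 and 2.42 in icKO hearts, against 3.22, 3.19 and 3.17 in controls. Ndufaf4 had 3.41, 3.34 and 3.36 in icKO hearts, against 4.39, 4.18 and 4.53 in controls. The differences of these partners were -0.89 ± 0.10 for Ndufaf3 and -0.999 ± 0.12 for Ndufaf4 (SE, limma adjusted p = 0.00126 and 0.00136). Ndufaf5 hydroxylates Ndufs7, and Ndufaf8 stabilises Ndufaf5. Both were the dimmest members. Ndufaf5 had levels of -1.42, -1.57 and -1.53 in icKO hearts, against -1.09, -0.72 and -0.66 in controls, of which control array 1 was nearest to the icKO group. Ndufaf8 had -1.78, -1.36 and -1.66 in icKO hearts, against -0.93, -1.12 and -1.08 in controls. The differences were -0.68 ± 0.14 for Ndufaf5 (SE, limma adjusted p = 0.00965) and -0.56 ± 0.14 for Ndufaf8 (SE, limma adjusted p = 0.018). The Ndufaf8 call was lost without control array 1 (limma adjusted p = 0.0567) and without icKO array 3 (limma adjusted p = 0.0572).

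Ndufaf7 is a methyltransferase that acts early in assembly. Its levels were 2.59, 2.70 and 2.69 in icKO hearts, against 3.497, 3.35 and 3.45 in controls, a difference of -0.77 ± 0.09 (SE, limma adjusted p = 0.00154). Ndufaf2 is a relative of Ndufa12 that acts late in assembly. It had levels of 2.44, 2.65 and 2.68 in icKO hearts, against 3.24, 3.07 and 3.24 in controls, a difference of -0.59 ± 0.11 (SE, limma adjusted p = 0.00694). Ndufaf6, an early assembly factor related in sequence to phytoene synthases, had 0.91, 0.90 and 1.099 in icKO hearts, against 2.51, 2.45 and 2.48 in controls. It fell by 1.51 ± 0.10 (SE, limma adjusted p = 0.000247), the largest change of the 45 members. Its 95% interval, -1.75 to -1.28, met that of Ndufaf4 at its edge and lay below those of the other 6 assembly factors. On the spike-in scale the Ndufaf6 interval ran from -1.44 to -0.70 and met those of Ndufaf4, Ndufaf1, Ndufaf3 and Ndufaf5. Ndufaf6 was picked here by its difference, and assembly factors were not tested against each other.

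Ndufa4, now placed in complex IV, had levels of 7.14, 7.14 and 7.16 in icKO hearts, against 8.18, 8.01 and 7.90 in controls. It fell by 0.88 ± 0.10 (SE, limma adjusted p = 0.00143), within the range of the complex I subunits. Ndufa4l2, a hypoxia-induced paralogue reported to restrain respiration, had 2.75, 3.13 and 3.06 in icKO hearts, against 2.89, 2.82 and 2.96 in controls. Its groups overlapped, and the difference was 0.09 ± 0.13 (SE, limma adjusted p = 0.592). The 95% interval of -0.22 to 0.40 does not show that its level was the same in both groups. With percentile scaling it lies above the intervals of Ndufa4 and of all subunits except Ndufa11. After quantile normalization its interval, -0.15 to 0.44, met those of Ndufv1, Ndufa13, Ndufb9, Ndufa2, Ndufb10, Ndufa11, Ndufb3 and Ndufa7. On the spike-in scale, where it ran from 0.15 to 0.91, it met those of Ndufa11, Ndufb3 and Ndufv1.

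For 37 members the value rests on 1 probe. The other 8 members had a second probe, and 52 of the 53 probes read lower in icKO hearts, the exception being that of Ndufa4l2. The probes of a gene differed by similar amounts for Ndufa5 (-1.16 and -1.24), Ndufv3 (-1.18 and -1.22), Ndufb4 (-0.96 and -1.06) and Ndufb6 (-0.93 and -0.84). They lay further apart for Ndufaf4 (-0.999 and -1.38), for Ndufb5 (-0.80 and -0.50) and for Ndufb11 (-0.86 and -0.27, -0.27 from the dimmer probe). The second Ndufaf5 probe, which is counted among the 52, stayed at background on all 6 arrays with overlapping groups and was not kept. It differed by -0.22, against -0.68 for the kept Ndufaf5 probe.

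Other genes of complex I biogenesis, outside the symbol rule, were also lower. All 13 measured (of a list of 14, Coa1 not being matched) fell, with a median difference of -0.85. The list includes Ndufab1 (-0.75), which as the acyl carrier protein is itself a subunit of complex I, and the other 12 are assembly genes. Ecsit, a scaffold of the membrane-arm assembly complex, had levels of 5.14, 5.30 and 5.38 in icKO hearts, against 6.62, 6.57 and 6.59 in controls. Tmem70, which aids the assembly of complex V and of complex I, had 3.01, 2.96 and 3.13 in icKO hearts, against 4.30, 4.20 and 4.37 in controls. Neither gene's groups overlapped, and the differences were -1.32 ± 0.10 and -1.25 ± 0.10 (SE, limma adjusted p = 0.000357 and 0.000414). The others lay between -1.16 (Foxred1) and -0.58 (Tmem126b).

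Setting the subunits against the assembly factors gave a small gap whose sign depended on the scaling. Relative to the control mean, the median subunit stood at -0.96, -0.95 and -0.87 on the 3 icKO arrays, against 0.08, -0.06 and -0.02 on the controls. The median assembly factor stood at -0.90, -0.81 and -0.72 on the icKO arrays, against 0.04, -0.08 and 0.01 on the controls. The subunit median minus the assembly factor median was -0.06, -0.14 and -0.15 on the icKO arrays, against 0.04, 0.02 and -0.04 on the controls, and the difference of medians was -0.12. After quantile normalization the order turned round, with a median of -0.57 for subunits and -0.78 for assembly factors. The authors' values gave the same order, with -0.57 and -0.78. They rank the spots of each array as the scanner signal does (Spearman correlation of 1) and are not a separate measurement. No test was made of this difference, and the ranges of single genes overlapped: -1.35 to -0.46 for subunits and -1.51 to -0.56 for assembly factors. The order of the accessory subunits of the 2 arms held with percentile scaling and with quantile normalization. The latter gave -0.59 for matrix-arm and -0.47 for membrane-arm accessory subunits.

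With percentile scaling the other respiratory complexes gave medians close to that of complex I. The 4 complex II genes all fell (median -0.91), as did the 9 complex III genes (-0.90), 11 of 13 complex IV genes (-0.77) and 15 of 16 measured complex V genes (-0.77). Uqcrc1 of complex III stood at 39.6% of control and Cox7a1 of complex IV at 37.2%, near Ndufs4 and Ndufa3. No gene of these complexes was called higher. The 2 complex IV subunits that were not called were Cox8a and Cox6a1. Cox8a had levels of 8.15, 8.29 and 8.20 in icKO hearts, against 7.96, 7.90 and 7.99 in controls, with no overlap and a difference of 0.26 ± 0.09 (SE, limma adjusted p = 0.0541). Cox6a1 differed by 0.15 ± 0.11 (SE, limma adjusted p = 0.301), with overlapping groups. On the icKO arrays the median of complex I subunits minus that of complex V genes was -0.19, -0.14 and -0.13, while against complex II it was -0.07, 0.02 and -0.01. The complex I median minus those of complexes II and III was -0.04 and -0.05. After quantile normalization the medians were -0.57 for complex I subunits, -0.60 for complex II, -0.40 for complex III, -0.31 for complex IV and -0.36 for complex V, so complexes III to V stood further from complex I there. Differences between these lists were not tested.

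**Figure D3:**
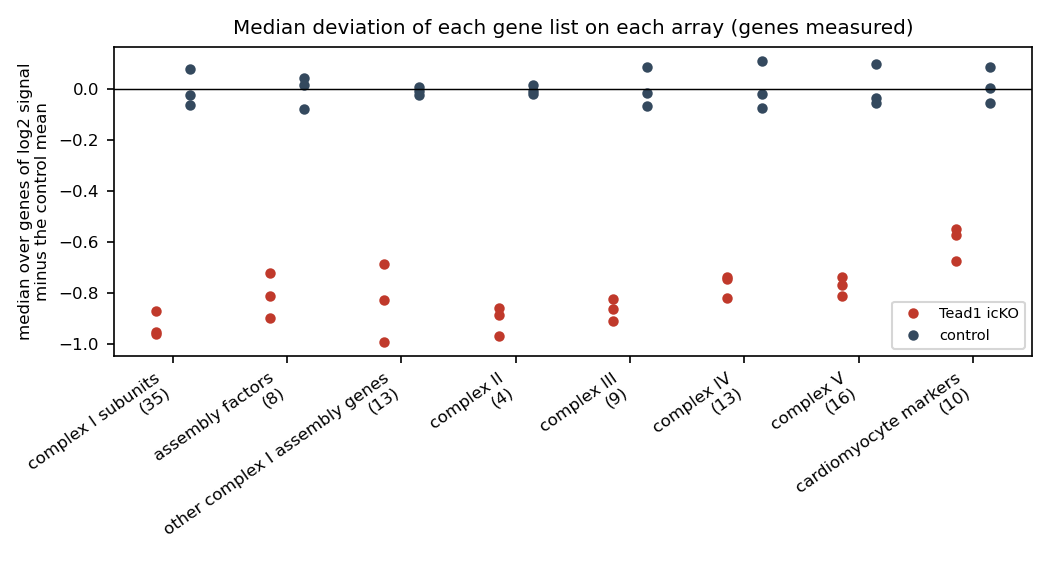
Median over the genes of each list of the log2 signal minus the control mean (vertical axis) on each of 3 Tead1 icKO and 3 control arrays, with the number of genes measured under each name. The icKO arrays lie between -0.96 and -0.87 for complex I subunits and between -0.90 and -0.72 for assembly factors, and the cardiomyocyte markers lie nearest to the controls.

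Markers of the cell types in the ventricle moved with the same groups. Of 10 cardiomyocyte markers 8 fell (median -0.60), and their summed level was 6117 to 6833 in icKO hearts, against 9622 to 11576 in controls, in units of the 75th percentile signal. Their median was -0.16 when scaled on spike-ins, -0.02 after quantile normalization and -0.01 from the authors' value table. A sum is weighted to the brightest probes. The median of complex I subunits minus that of these markers was -0.41, -0.28 and -0.30 on the icKO arrays. Of 10 fibroblast markers 8 were higher (median 1.34), with a summed level of 700 to 883 in icKO hearts, against 256 to 422 in controls. Of 9 macrophage markers 8 were higher (median 1.38), with 105 to 134 in icKO hearts, against 37.6 to 53.6 in controls. Of 10 endothelial markers 4 fell and 1 was higher (median -0.30), with 233 to 302 in icKO hearts, against 211 to 233 in controls. The endothelial marker that was higher was Vwf, von Willebrand factor, with levels of 6.54, 5.56 and 6.48 in icKO hearts, against 3.76, 4.38 and 4.01 in controls. Ryr2 and Actn2, the cardiomyocyte markers that were not called, differed by 0.05 and 0.10 (limma adjusted p = 0.72 and 0.488). The part of cell composition in the complex I differences was not tested.

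All arrays shared 1 slide and 1 scan. The icKO arrays occupied its columns 2, 3 and 3, and the controls columns 1, 1 and 2. Their 75th percentile signal was 292 to 348 on icKO arrays and 189 to 233 on controls, and 47.7% to 50.9% of probes were well above background with no saturated spot. Array profiles correlated at 0.986 to 0.992 within icKO, 0.989 to 0.992 within controls and 0.946 to 0.957 between the groups. In slide column 2, which held 1 array of each group, the median difference was -0.94 for subunits and -0.94 for assembly factors, and 43 of 43 were lower. The share of all features that were lower there was not computed, so this count has no background beside it. The brighter icKO arrays enter every difference through the scaling. Scaled instead on 5 E1A spike-in probes, all differences moved up by 0.44, which put the median feature at 0.30. All 43 subunits and assembly factors stayed below 0, but 19 of 35 subunits and 2 of 8 assembly factors passed the test (medians -0.51 and -0.39), when 7.44% of all features were called lower and 31.9% higher. Ndufa11 (-0.016) and Ndufb3 (-0.073) were barely below 0 (limma adjusted p = 0.945 and 0.721). Groups overlapped for these and for Ndufc2, Ndufv1, Ndufaf2, Ndufaf5 and Ndufaf8. The share of all features below 0 is not given here, so the count of 43 has no background beside it. With that scaling Ndufs4 stood at -0.91, Ndufa3 at -0.89 and Ndufaf6 at -1.07 (limma adjusted p = 0.00342, 0.00276 and 0.00169), and Ndufa4l2 was called higher at 0.53 (limma adjusted p = 0.0345).

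Probe brightness also moved with the difference, in a comparison chosen after seeing the data. Many subunit probes are bright: 15 of the 35 had a mean log2 level of 8 to 10, a range with 259 features. The median difference of all features in that range was -0.53, and 69.9% of them fell, against -0.95 for those 15 subunits. In the range of 6 to 8, the 16 subunits had a median of -0.86, against -0.21 for its 807 features, of which 40.9% fell. In the range of 2 to 4, the 5 assembly factors had -0.89, against -0.06 for its 3512 features, of which 28.7% fell. Quantile normalization flattened that trend, with medians of all features between -0.13 and -0.01 across the ranges that held 261 or more features. The dimmest range, with 76 features, had a median of 2.29 and held no member. The 15 subunits of the brightest of these ranges then had a median of -0.47, against -0.03 for their range, and the 5 assembly factors -0.85, against -0.02. The calls of Ndufv1 (-0.18), Ndufa13 (-0.18) and Ndufb9 (-0.27) were lost with that setting (limma adjusted p = 0.172, 0.139 and 0.0699). Across the 35 subunits the difference and the mean level had r = 0.05 and rho = 0.02 with percentile scaling, and r = 0.64 and rho = 0.56 after quantile normalization, over genes that share the same 6 arrays. The part of brightness in the complex I differences was not tested.

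**Figure D4:**
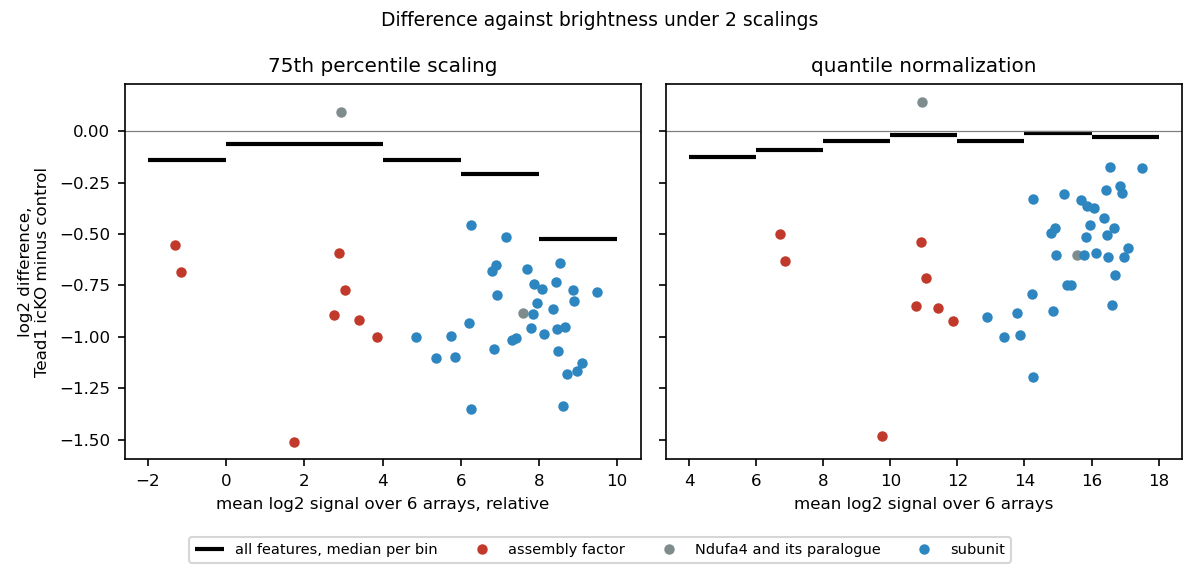
Log2 difference between Tead1 icKO and control (vertical axis) against the mean log2 signal over 6 arrays (horizontal axis) for 44 of the 45 complex I genes, with percentile scaling on the left and quantile normalization on the right. Black bars are medians of all features in ranges of 2 log2 units, drawn from -2 up on the left and only for ranges with at least 100 features. The bar of the brightest range drawn lies at -0.53 on the left and at -0.03 on the right, and the complex I genes other than Ndufa4l2 lie below 0 in both panels.

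Promoter windows of 300 bases, 250 before and 50 from the annotated start onward, were taken from RefSeq (GRCm38.p6) for the 39 members that the table held, 31 subunits and 7 assembly factors among them. Motifs were searched on both strands as exact letters. AAGATGGCG, the core recognised by YY1, a factor known to bind near the starts of nuclear mitochondrial genes, was present in 5 of 31 subunits (16.1%) and 1 of 7 assembly factors (14.3%), against 2.14% of 17492 protein-coding genes. GCGCATGCG, the core of the site of NRF1, a regulator of nuclear mitochondrial genes, was present in 2 of 31 subunits (6.45%) and 2 of 7 assembly factors (28.6%), against 2.61% of protein-coding genes. GGAATG, the core bound by TEAD factors, was present in 4 of 31 subunits (12.9%) and 1 of 7 assembly factors (14.3%), against 15.5% of protein-coding genes. CCGGAAGT, bound by GABP and other ETS factors, was found in Ndufs3 alone among the subunits (3.23%, against 5.69%), and TCAAGGTCA, bound by oestrogen-related receptors, in none of them (0.377% of protein-coding genes). Matches of different motifs did not overlap, and a match describes the letters of the window and not a bound site.

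The windows with a YY1 or NRF1 match are shown so that the position of these letters relative to the start can be compared between members. The first 6 run from 50 bases before to 50 after the start, with the YY1 letters in capitals. These letters also contain ATG, and whether that ATG is the start of translation was not checked. The match begins 36 bases into the transcript in Ndufs4, 34 in Ndufs6, 25 in Ndufs7, 30 in Ndufa9, 23 in Ndufc1 and 11 in Ndufaf8, always on the gene's own strand. Coordinates are GRCm38.p6, and letters read 5′ to 3′ on the gene's strand.
Ndufs4, chr13:114388045-114388144, minus strand: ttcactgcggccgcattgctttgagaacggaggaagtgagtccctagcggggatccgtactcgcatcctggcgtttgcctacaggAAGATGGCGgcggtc
Ndufs6, chr13:73328433-73328532, minus strand: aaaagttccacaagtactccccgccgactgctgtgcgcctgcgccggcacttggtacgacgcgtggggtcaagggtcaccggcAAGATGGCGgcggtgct
Ndufs7, chr10:80249399-80249498, plus strand: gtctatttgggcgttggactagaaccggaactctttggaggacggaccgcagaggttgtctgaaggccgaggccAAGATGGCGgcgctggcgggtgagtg
Ndufa9, chr6:126849095-126849194, minus strand: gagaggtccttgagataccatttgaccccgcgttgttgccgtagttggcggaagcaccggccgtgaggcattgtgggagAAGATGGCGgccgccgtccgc
Ndufc1, chr3:51408906-51409005, minus strand: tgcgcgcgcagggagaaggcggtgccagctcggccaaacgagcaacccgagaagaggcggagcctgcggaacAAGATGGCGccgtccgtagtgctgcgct
Ndufaf8, chr11:120098884-120098983, plus strand: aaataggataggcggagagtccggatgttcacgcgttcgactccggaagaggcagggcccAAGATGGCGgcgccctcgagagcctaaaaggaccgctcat

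The differences of these 6 genes, -1.35, -1.13, -1.07, -1.06, -0.83 and -0.56 in the order shown, spread over much of the range of the family. The NRF1 letters, in capitals in the next 4 windows, begin at base -113 relative to the start in Ndufaf4, at 17 in Ndufaf5, at -60 in Ndufa11 and, on the opposite strand, at -9 in Ndufa8. In the first 3 of these the site reads on both strands, so the capitals are 1 base longer than the motif.
Ndufaf4, chr4:24897933-24898032, plus strand: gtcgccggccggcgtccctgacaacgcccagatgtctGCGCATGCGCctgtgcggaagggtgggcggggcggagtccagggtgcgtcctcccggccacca
Ndufaf5, chr2:140170596-140170695, plus strand: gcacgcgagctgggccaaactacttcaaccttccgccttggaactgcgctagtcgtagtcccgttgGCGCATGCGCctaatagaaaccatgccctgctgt
Ndufa11, chr17:56717652-56717751, plus strand: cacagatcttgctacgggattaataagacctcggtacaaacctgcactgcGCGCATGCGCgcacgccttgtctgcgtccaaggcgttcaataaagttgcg
Ndufa8, chr2:36049289-36049388, minus strand: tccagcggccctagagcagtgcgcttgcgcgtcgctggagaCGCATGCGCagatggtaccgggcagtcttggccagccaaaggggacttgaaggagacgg

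These 4 genes differed by -0.999, -0.68, -0.46 and -0.999. No binding was measured in these hearts, and none of the promoter matches was tested against the differences.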

How the data were processed

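Ventricle RNA of 6 mice was Cy3-labelled and run on 1-colour arrays, per the labels' protocols. Spot intensity in the deposited files is linear scanner output of Agilent Feature Extraction 11.0.1.1, per the file headers, while the submitters' processing notes name 9.1. The processed signal was background-subtracted before it was deposited. The authors' deposited value table, also linear intensity, served as an alternative. Its normalization is unstated in the labels, and its column medians were nearly equal, at 18.37 to 18.47.

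Processed signals were log2-transformed from the deposited intensity, less the 75th percentile of that array's non-control spots. Spots with an outlier flag were dropped and spots of a probe averaged. A probe was kept if all 3 arrays of either group read it well above background (26152 of 55681). Probes were named by RefSeq accession in a GRCm38.p6 table, and the brightest kept probe represents a gene. Groups were compared with limma 3.58.1 in R 4.3.3 (lmFit and eBayes), with Benjamini-Hochberg adjustment over 22278 features and a threshold of 0.05. The steps were tested on simulated data. The number of arrays limits the precision.

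The members, the lists and the alternatives were chosen with earlier results of these data known. Values on every array are given for the core subunits (1 of which, included in counts and medians, is not reported here by itself), the assembly factors, Ndufa4, Ndufa4l2, the 3 largest and 3 smallest falls of accessory subunits and members that were not called. From the other assembly genes and from complexes II to V the rule takes the 2 with the smallest p in each direction. Other genes named with a value were chosen after their values were seen. The alternatives were normexp (offset 50, on median signals, since the mean-signal column that was planned is not in the files used here), scaling by the median, by quantiles or by spike-ins, the authors' values, other filters, probe averaging, trend and robust eBayes, array weights, the replicate number or slide row as a block, and leaving out each array. The comparison within slide column 2 was added after seeing the data. Motif letters were searched in the promoter windows as exact cores, shorter than the full sites of these factors.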

Additional observations from a re-analysis of the deposited data

How the results depend on the processing

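The 43 subunits and assembly factors stayed below 0 under every setting run, though Ndufa11 only at -0.016 on the spike-in scale. The share of all features below 0 is not given beside this count. Their medians moved with the scaling: with normexp to -0.80 for subunits and -0.73 for assembly factors, to -0.79 and -0.68 when scaled by the median, and to -0.51 and -0.39 when scaled on spike-ins. After quantile normalization the medians were -0.57 for subunits and -0.78 for assembly factors, and likewise -0.57 and -0.78 from the authors' values. Within slide column 2, with 1 array of each group, both were -0.94. Spike-in scaling left 19 subunits, 2 assembly factors and 5 of 13 other assembly genes called, and put Tead1 at 0.044 (limma adjusted p = 0.837). That construction adds 0.44 to every difference, and the cause of the other shifts was not tested. Calls were also lost for Tead1, Ndufa11, Ndufb3, Ndufaf2 and Ndufaf8 with median scaling, for Ndufa13, Ndufb9 and Ndufv1 with quantile normalization and the authors' table, for Tead1, Ndufa11 and Ndufaf8 with no filter on dim probes, and for Tead1 with the slide row as a block and without any 1 of 4 arrays. The share of calls that were higher in icKO was 35.8% in the reported fit, 54.6% when scaled by the median and 81.1% when scaled on spike-ins. Of all features 9974 were called as reported and 6123 with no filter. Leaving out each array gave 34 to 35 subunits, 7 to 8 assembly factors and 13 other assembly genes called, with medians of -0.99 to -0.91 for subunits and -0.87 to -0.78 for assembly factors. Of all features, 21.2% to 26.4% were called lower in those fits. Same-numbered arrays did not deviate together (correlations of -0.05, -0.13 and 0.00), so the numbers were not taken as pairs. With the replicate number as a block, 35 subunits and 7 assembly factors were called, and the calls of Ndufaf8 and Tead1 were lost (limma adjusted p = 0.0553 and 0.0509). That block left 22.8% of all features called lower.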
